A study of Mus musculus with 2 samples.

Results

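Son, Josd2, Dnaic1, Itgam, Bdkrb2, Auh and D6Ertd527e are the 7 mouse genes that hold, or lie nearest to, 7 of the 10 strongest binding peaks of tagged Rfx6 in a β cell line. They were selected on the number of sequenced reads (tags) that their peaks contain, so their tag numbers are given as a description and were not tested. The other 3 of those 10 peaks, which lie on chromosome 17, in Rfx6 itself and 84.2 kb from Gm17566 on chromosome 1, were not counted with these genes. Min6B1 cells, an insulin-secreting mouse line, were transfected with 24 μg of a plasmid encoding Rfx6 with 3 HA epitopes (3HA-Rfx6) and harvested 2 days later, and ChIP-seq was done with the anti-HA antibody 12CA5, which pulls down the tagged protein with its attached DNA. For the control library, the same antibody was used on cells labelled only as Min6b1 cells, whose growth description repeats the transfection. Each condition had 1 library, so no value here has a replicate error, and the control acts solely as the background against which the authors called peaks.

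Rfx6 belongs to the RFX family of transcription factors, which bind the X-box, a pair of inverted half-sites separated by a few bases. In the pancreas it is needed for the formation of islet cells and for the function of mature β cells. RFX factors are also known as regulators of genes for cilia. The genes described here have no common function, and no function is given for D6Ertd527e. Son encodes a large nuclear speckle protein that acts in mRNA splicing, and Josd2 a Josephin-domain deubiquitinase. Dnaic1 encodes an intermediate chain of the outer dynein arms of motile cilia, which makes it the only gene described here with a ciliary product. Itgam encodes the integrin αM chain (CD11b) of myeloid cells, Bdkrb2 the bradykinin B2 receptor, and Auh a mitochondrial enzyme of leucine breakdown that also binds AU-rich RNA.

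The deposited list holds 23308 peaks, with a median of 73 tags, a median fold enrichment over background of 8.54 and a median length of 1196 bp. The ChIP library had 49443917 mapped reads of which 33949757 were retained, and the control 16911298 of which 3567375 were retained, a ratio of 9.52 between the retained reads. Within 100 kb of the 7 genes there were 60 summits, where the summit is the position of highest signal in a peak. Coordinates are on mm9 and genes are those of GENCODE M1.

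The sequence under the summits differed between the 7 genes, and it is shown first because the descriptions below turn on it. A half-site was the word AGCAAC on either strand, or a related word with AGTAAC, with GGCAAC or with GGTAAC as its letters, and it is printed in capitals. All stretches are written 5′ to 3′ on the plus strand. In Son the summit lay in a coding exon, and the window chr16:91656211-91656410 held 6 half-sites within a repeat that recurred every 36 bases.
Son: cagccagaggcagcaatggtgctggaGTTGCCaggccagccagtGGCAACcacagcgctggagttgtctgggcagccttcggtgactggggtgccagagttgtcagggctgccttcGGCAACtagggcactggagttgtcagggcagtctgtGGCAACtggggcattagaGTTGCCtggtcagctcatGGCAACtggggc
A second array lay to the right in the same exon, with a unit of 30 bases. It is shown from 605 bases after the summit (chr16:91656916-91657005), and each copy in this stretch carried 1 half-site.
Son, right of the summit: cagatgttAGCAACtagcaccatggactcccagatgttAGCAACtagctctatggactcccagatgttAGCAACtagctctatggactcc
In D6Ertd527e the summit was also in a coding exon, and 8 half-sites, all in the same orientation, stood in the window chr6:87061623-87061822.
D6Ertd527e: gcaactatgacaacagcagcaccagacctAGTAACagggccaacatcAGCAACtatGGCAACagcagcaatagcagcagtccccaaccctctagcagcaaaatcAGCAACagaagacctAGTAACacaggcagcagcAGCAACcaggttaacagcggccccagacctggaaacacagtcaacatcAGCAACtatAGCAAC
In Dnaic1 the summit was intronic, and the window chr4:41540559-41540758 was made of copies of a unit of about 25 bases, 5 of them with GGTAAC and others with ggtgac at the same place.
Dnaic1: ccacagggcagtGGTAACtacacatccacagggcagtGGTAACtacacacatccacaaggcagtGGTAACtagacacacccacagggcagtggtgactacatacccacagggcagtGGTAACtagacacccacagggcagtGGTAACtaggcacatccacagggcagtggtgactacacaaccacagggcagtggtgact

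The windows at Itgam and Bdkrb2 were repeats as well, but neither held a half-site. Here the capitals mark the most frequent word of 10 bases in the window. In an intron of Itgam (chr7:135262418-135262617) the word occurred 6 times.
Itgam: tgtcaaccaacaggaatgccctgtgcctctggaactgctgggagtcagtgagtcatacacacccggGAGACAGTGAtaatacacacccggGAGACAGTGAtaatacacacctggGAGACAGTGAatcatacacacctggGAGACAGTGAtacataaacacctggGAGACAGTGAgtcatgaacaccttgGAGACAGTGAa
Upstream of Bdkrb2 (chr12:106782609-106782808) it occurred 9 times, in the most regular of the arrays at these genes.
Bdkrb2: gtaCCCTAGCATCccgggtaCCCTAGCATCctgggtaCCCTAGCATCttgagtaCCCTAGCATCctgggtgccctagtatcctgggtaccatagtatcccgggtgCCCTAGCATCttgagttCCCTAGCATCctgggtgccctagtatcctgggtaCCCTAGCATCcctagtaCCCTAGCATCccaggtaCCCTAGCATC

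Josd2 and Auh had no such array at the summit. At Josd2, 2 strict X-boxes stood to the left of the summit, the nearer one 26 bases away (chr7:51723722-51723734, minus strand) and the farther one 140 bases away (chr7:51723608-51723620, minus strand), both in capitals over their whole length.
Josd2, nearer X-box: GTCGCCTAGCAAC
Josd2, farther X-box: GTCACCTGGCAAC
The bases to the right of the summit that lie in an intron of every transcript (chr7:51723788-51723859) held 1 further half-site, in capitals.
Josd2, intron: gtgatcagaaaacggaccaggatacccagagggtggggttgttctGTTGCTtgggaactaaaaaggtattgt
The summit window of Auh (chr13:52847816-52848015) held 1 half-site.
Auh: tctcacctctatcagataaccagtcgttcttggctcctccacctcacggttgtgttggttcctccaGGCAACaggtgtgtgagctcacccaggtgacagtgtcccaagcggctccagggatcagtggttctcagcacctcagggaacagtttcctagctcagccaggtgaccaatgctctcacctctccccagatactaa
Elsewhere in the same peak, the window with the most half-sites (chr13:52843914-52844113) held 4 of them, 3 of these as GGTAAC after cca or tca.
Auh, window with the most half-sites: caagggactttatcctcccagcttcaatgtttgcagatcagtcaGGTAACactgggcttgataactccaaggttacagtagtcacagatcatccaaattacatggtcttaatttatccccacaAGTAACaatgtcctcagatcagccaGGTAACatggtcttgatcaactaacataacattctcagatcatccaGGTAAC

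The highest peaks of the 7 genes contained between 972 and 1486 tags, with a median of 1193. Auh had the most, with 1486 tags, followed by Son with 1411, Dnaic1 with 1229, Itgam with 1193, Bdkrb2 with 1157, D6Ertd527e with 1083 and Josd2 with 972. By tags these are ranks 2, 3, 6, 7, 8, 9 and 10 of the list. The values of neighbours in this order lie close together. The exact 95% Poisson interval of the Josd2 peak was 912 to 1035 tags and that of the D6Ertd527e peak 1019 to 1149, and these intervals cover counting error only. The peak just outside the limit, on chromosome 13 near Gm5446, had 951 tags, against 972 for Josd2 just inside it.

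In fold enrichment the order of the 7 peaks was different. Josd2, the last by tags, had the highest fold enrichment of the whole list, 95.8, and Bdkrb2 (88.24) and Son (85.91) came next. Dnaic1 reached 66.98, D6Ertd527e 65.91 and Auh 60.5, while Itgam was lowest at 47.6, which is rank 111 of the list. All 7 were at least 10-fold enriched, a level that 39.6% of all peaks reached. The fold enrichment uses the same ChIP reads as the tags that selected these 7 peaks, so this count too is a description. All had a score of 3100, which 77 peaks of the list share, so the score did not order them.

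**Figure D1:**
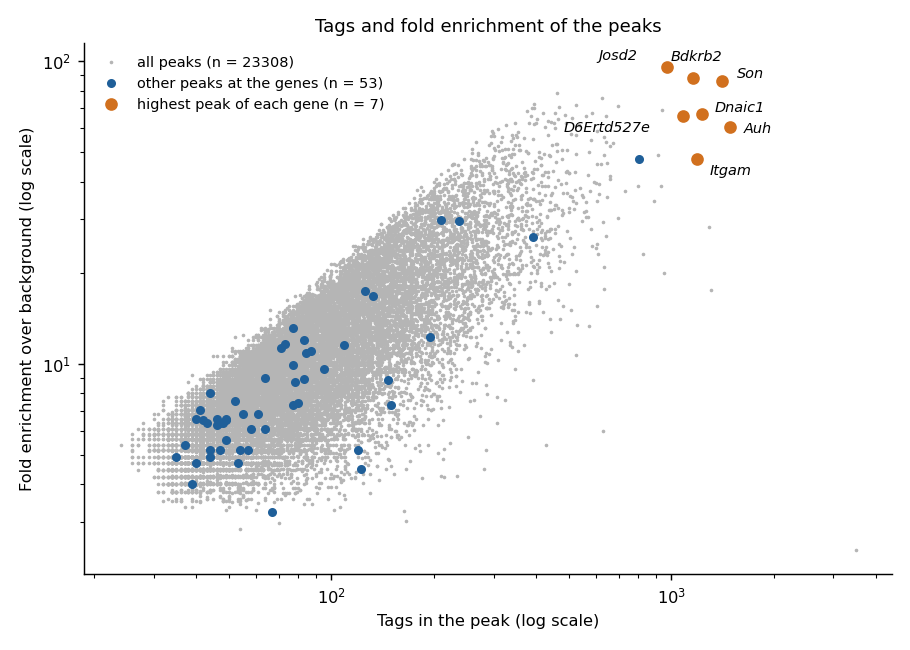
Tags (x axis, log scale) against fold enrichment over background (y axis, log scale) for each of the 23308 peaks, with the highest peak of each of the 7 genes in orange and the other 53 peaks at these genes in blue. The orange points lie between 972 and 1486 tags, and of the blue points only the peak of 806 tags near Auh comes close to them.

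A single peak dominated the surroundings of 5 of the genes. The highest peak held 83.8% of all tags in peaks within 100 kb of D6Ertd527e, 79.9% at Itgam, 76.0% at Son, 63.7% at Dnaic1 and 62.3% at Bdkrb2. At D6Ertd527e it had 13.5 times the tags of the next peak, at Itgam 9.78 times, at Son 9.60 times, at Dnaic1 9.24 times and at Bdkrb2 5.51 times. Josd2 and Auh were different in this respect, since their highest peaks held 42.1% and 50.9% of the tags and exceeded the next peak 2.47 and 1.84 times.

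Most of the other 53 peaks at the genes were far smaller. Their tags were between 35 and 806 (median 64) and their fold enrichments between 3.25 and 47.55 (median 6.83). The 2 with the most tags were the peak of 806 tags near Auh, rank 17 of the list, and one of 393 tags near Josd2, rank 238. Of the 53, 41 had at most 100 tags, as did 68.7% of all peaks, and 22 had more tags than the median of the list, as did 49.2%. A fold enrichment of at least 10 was reached by 14, against the 39.6% of all peaks given above. By position, 11 lay inside the 7 genes, 25 upstream and 17 downstream.

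The number of peaks around the genes varied. Josd2 had 15 summits within 100 kb, Dnaic1 11, Auh 9, Bdkrb2 8, Son 7, Itgam 6 and D6Ertd527e 4. Among all 22350 protein-coding genes, 76.7% had at least 1 summit within that distance and the median was 3. As many as at Josd2 were found at 3.20% of them, and as many as at D6Ertd527e at 43.3%. Inside the genes there were 4 summits in Dnaic1 and in Auh, 2 in Son, Itgam and D6Ertd527e, and 1 in Josd2 and Bdkrb2.

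**Figure D2:**
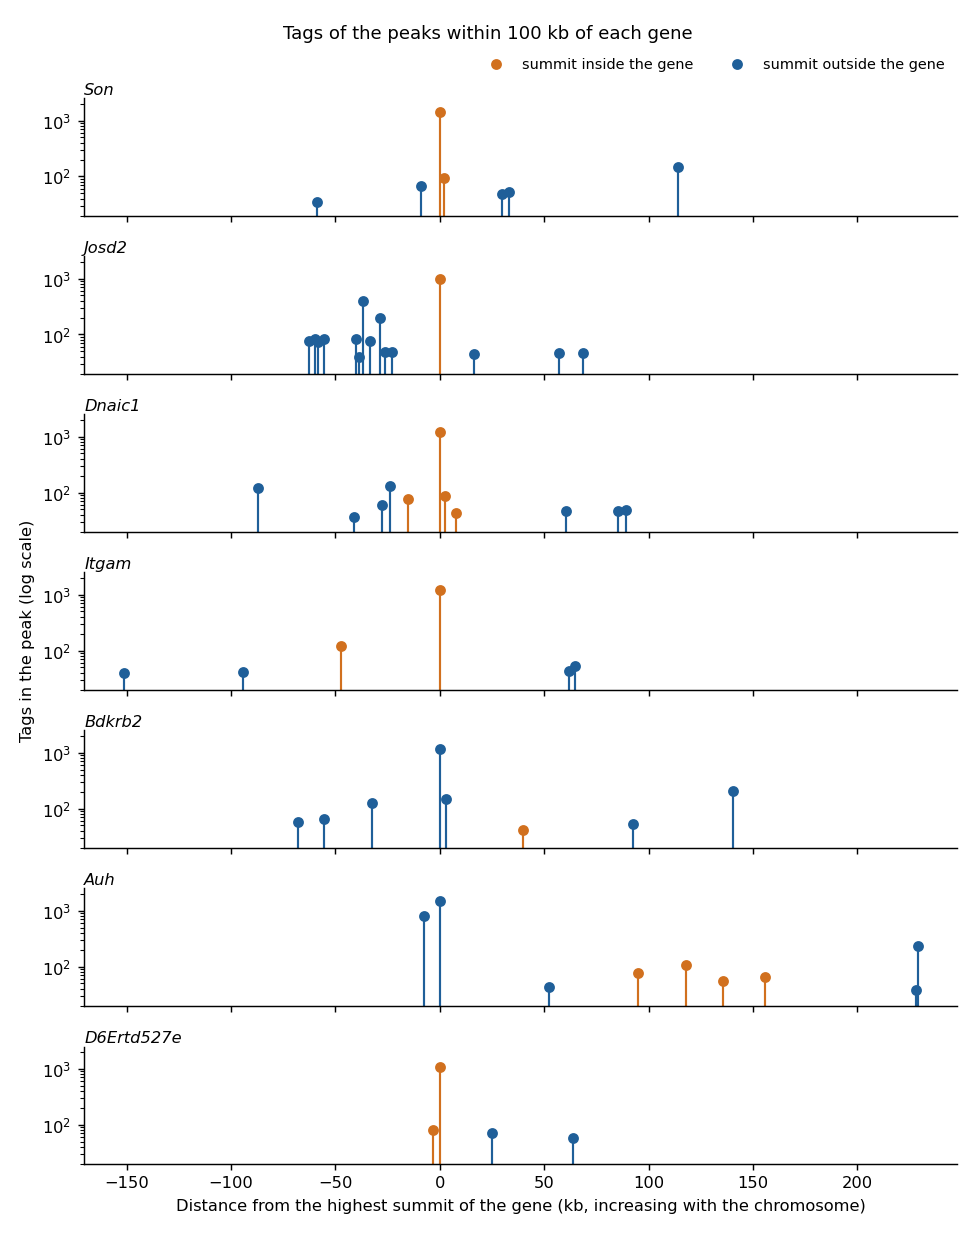
Tags in each of the 60 peaks within 100 kb of the 7 genes (y axis, log scale) against the distance in kb from the highest summit of that gene (x axis), with summits inside the gene in orange and outside it in blue. At Auh and Bdkrb2 the highest peak lies outside the gene, and at Auh a peak of 806 tags stands beside the one of 1486 tags.

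Son (ENSMUSG00000022961.10, chr16:91647751-91679466, plus strand) had its peak at chr16:91655244-91657333. The summit at position 91656311 was 8.56 kb after the gene start, in exon 3 of the 12 exons of transcript Son-001, a coding exon of 5970 bases that spans chr16:91654856-91660825. A second summit in the same exon, 10.7 kb after the start, had 95 tags and a fold enrichment of 9.59. The peak nearest to the Son start, 0.364 kb upstream, had 67 tags and the lowest fold enrichment of all 60 peaks, 3.25. The nearest genes on either side of the highest summit were Gart, 9.11 kb away, which encodes an enzyme of purine synthesis and starts there on the opposite strand, and Donson, 21.2 kb away, a replication fork factor. The second most tags in this region, 147, were in a peak 91.0 kb downstream, in introns of the overlapping genes Itsn1 and Atp5o, and 4 of the 7 summits of the region were in such neighbouring genes.

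D6Ertd527e (ENSMUSG00000090891.1, chr6:87054820-87062245, plus strand) is annotated as protein-coding with 2 exons in transcript D6Ertd527e-201. The peak at chr6:87060575-87062757 had its summit at position 87061723 in exon 2, 6.90 kb after the start. The coding part of that exon spans 1375 bases, and the peak of 2183 bp covered it completely. The other summit in the gene was in intron 1, 3.72 kb after the start, with 80 tags. Gfpt1, which encodes the first enzyme of hexosamine synthesis, lay 19.5 kb to the left and Antxr1, an anthrax toxin receptor gene, 22.1 kb to the right. The remaining 2 peaks both lay in Antxr1 and had 71 and 58 tags.

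Dnaic1 (ENSMUSG00000061322.9, chr4:41516808-41585191, plus strand) had its peak at chr4:41539116-41541453, with the summit at position 41540659 in intron 1 of the 20 exons of Dnaic1-001, 23.9 kb after the start. The gene start itself had a separate peak, with its summit 24 bases before the first base, 133 tags and a fold enrichment of 16.71. This peak (chr4:41515899-41517464) also covered the start of 2310028H24Rik on the opposite strand. Its summit lay between both gene starts, so the peak cannot be assigned to Dnaic1 alone. That peak held a strict X-box whose first base on the plus strand is the first base of Dnaic1 (chr4:41516808-41516820, minus strand).
Dnaic1, start: GTTACCCAGCAAC
The intronic peak had 9.24 times the tags of the start peak, and its window held no X-box with fewer than 3 mismatches. Summits in introns 1, 1 and 4 of Dnaic1 had 77, 87 and 43 tags. The neighbours of the highest summit were 2310028H24Rik, which starts 24.1 kb away on the opposite strand, and Cntfr, 63.9 kb away. Cntfr encodes the receptor of ciliary neurotrophic factor.

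Itgam (ENSMUSG00000030786.11, chr7:135206154-135271674, plus strand) had its peak at chr7:135261832-135263958, with the summit at position 135262518 in intron 29 of the 30 exons of Itgam-001, 56.4 kb after the start. Near the start, in intron 5 and 8.83 kb along the gene, was a peak of 122 tags with a fold enrichment of only 4.49. The next gene, Itgax, encodes the related integrin αX chain (CD11c) and began 10.5 kb to the right of the highest summit, while Trim72 was 108 kb to the left. Another integrin gene, Itgad, held 2 peaks of 44 and 54 tags in introns. The first of these contained a strict X-box that began at the summit base (chr7:135324634-135324647, plus strand).
Itgad: GTAACCCTAGCAAC

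Bdkrb2 (ENSMUSG00000021070.5, chr12:106801382-106831281, plus strand) was one of 2 members whose highest summit was outside the gene. The peak at chr12:106781800-106783682 had its summit at position 106782709, 18.7 kb upstream of the start and in no annotated gene. On the other side the nearest gene, Tcl1, was 322 kb away, and Bdkrb1, the gene of the bradykinin B1 receptor, was 59.6 kb to the right, beyond Bdkrb2. Another intergenic peak 15.7 kb upstream had 150 tags and a fold enrichment of 7.30. The only summit inside Bdkrb2, in intron 1, had 42 tags. The peak with the second most tags, 210, had a fold enrichment of 29.89 and lay 91.9 kb downstream in Atg2b, an autophagy gene.

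Auh (ENSMUSG00000021460.10, chr13:52930488-53025050, minus strand) was the member farthest from its peak. The summit at position 52847916 lay 82.6 kb downstream of the gene in a peak of 6104 bp, chr13:52843090-52849193, while the highest peaks at the other genes were 1883 to 2338 bp long. Relative to length it was the weakest of the 7, with 243 tags per kb against 675 at Son. No other protein-coding gene lay within 100 kb of it, since Sykb was 104 kb away on one side and Nfil3, beyond Auh, 215 kb on the other. Its neighbour at chr13:52839100-52842727, with the summit 90.4 kb downstream of Auh, had 806 tags, a fold enrichment of 47.55 and rank 17. In this second peak a strict X-box stood 5 bases from the summit (chr13:52840134-52840147, minus strand).
Auh, neighbouring peak: GTAACCCAGGCAAC
Within Auh there were 4 summits with 55 to 109 tags, the highest of them in intron 6. A further peak of 237 tags and a fold enrichment of 29.66 lay 51.9 kb upstream of Auh. It was just upstream of the start of Nfil3, which encodes a bZIP repressor. Its summit was 229.008 kb to the right of the highest summit, and the Nfil3 start, on the minus strand, was at 228.526 kb. A peak of 39 tags lay beside it within Nfil3.

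Josd2 (ENSMUSG00000038695.6, chr7:51723350-51727022, plus strand) was the only member whose highest peak was at the gene start. The peak, chr7:51722799-51724796, had its summit at position 51723760, 0.410 kb after the start. This position is in intron 1 of the 5 exons of Josd2-001 and in a noncoding exon of 7 other transcripts, among them Josd2-009 with the exon chr7:51723676-51723787. The neighbouring gene Aspdh, which encodes a putative aspartate dehydrogenase, ended 0.633 kb to the left of the summit and runs in the same direction. A group of peaks lay farther upstream in Lrrc4b, a gene for a synaptic adhesion protein, and the largest of them, 36.2 kb from Josd2, had 393 tags and a fold enrichment of 26.27. A smaller Lrrc4b peak of 40 tags contained a strict X-box (chr7:51684780-51684793, plus strand) that can be read on either strand.
Lrrc4b: GTTGCCGTGGCAAC
With 11 protein-coding genes within 100 kb of the summit, Josd2 lay in the most gene-dense surroundings of the 7, against 1 at Auh.

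Of the 7 highest summits, 3 were in exons, at Son, D6Ertd527e and Josd2, and 2 of these, at Son and D6Ertd527e, in coding exons. In the whole list 15.2% of summits were in an exon and 7.1% in a coding exon. Introns held 2, at Dnaic1 and Itgam, and 2 were intergenic. Of the other 53 summits at these genes, 1 was in a coding exon, that in Son, 4 were in untranslated or noncoding exons, 30 in introns and 18 intergenic.

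X-boxes were searched in a strict and a relaxed form, each made of a left and a right arm of 6 bases. In the strict X-box the right arm is a half-site as defined above, and 0 to 3 bases separate the arms. The left arm is any GTNACC or else any GTNGCC, where N is any base. Against an inverted half-site it is looser at N, but stricter at its last base, which must be C. A pair of inverted half-sites 107 bases from the Josd2 summit (chr7:51723641-51723653) therefore had 1 mismatch and was not counted as strict. The relaxed X-box allows more bases at several positions of both arms, but needs C or T where the strict left arm has N. Its spacing is 1 to 3. It therefore does not include every strict match, and the Itgad peak with a strict X-box had no relaxed one. Within the 200 bp around the summit, Josd2 alone of the 7 highest peaks had a strict X-box, which 6.42% of all peaks had. The relaxed X-box was found at 3 of the 7, with 6 matches at Josd2, 3 at Son and 2 at Auh, and at 45.9% of all summits. The fewest mismatches to the strict X-box were 1 at Son, Auh and D6Ertd527e, 2 at Bdkrb2, 3 at Dnaic1 and 4 at Itgam. Among the other 53 peaks, 4 had a strict and 27 a relaxed X-box, which makes 5 and 30 of the 60 peaks. In the promoters of RefSeq (GRCm38.p6, 300 bases each), which were found for all 7 genes, a strict X-box was present at Dnaic1 alone, and in 1.53% of all 32851 promoters.

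Single half-sites were frequent in part of the peaks. Around the summit there were 8 at D6Ertd527e, 6 at Son, 5 at Dnaic1, 4 at Josd2, 1 at Auh and none at Itgam and Bdkrb2. At least 3 were thus present at 4 of the 7, compared with 7.25% of all peaks, 6 of the other 53 peaks and 0.429% of windows of the same length 1 kb to the right of the summits. At least 1 was present at 5 of the 7 and 38 of the other 53, against 60.9% of all peaks. This minimum of 3 was chosen after the sequences had been seen, so these counts are a description.

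Over the whole peak, D6Ertd527e had 51 half-sites, Auh 42, Son 26, Dnaic1 26, Josd2 9, Itgam 3 and Bdkrb2 3. Per kb these were 23.4 at D6Ertd527e, 12.4 at Son, 11.1 at Dnaic1, 6.88 at Auh, 4.50 at Josd2, 1.59 at Bdkrb2 and 1.41 at Itgam, and the median of all peaks was 1.95. The orientation of the half-sites differed between the peaks. On the plus strand were 50 of the 51 at D6Ertd527e, 40 of 42 at Auh and 25 of 26 at Dnaic1, whereas 8 of the 9 at Josd2 were on the minus strand. Son had both orientations at the summit array, with 8 on the plus and 9 on the minus strand, and 9 on the plus strand alone in the array to the right. Of the 3 each at Itgam and Bdkrb2, 2 and 1 were on the plus strand. The distance from 1 half-site to the next had a median of 18 bases at D6Ertd527e, 27 at Dnaic1, 30 at Son, 43.5 at Josd2 and 77 at Auh.

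The words that made up the half-sites also differed. GGTAAC accounted for 24 of the 26 at Dnaic1 and 26 of the 42 at Auh. At D6Ertd527e 29 of 51 were AGCAAC and 16 were AGTAAC, and at Son 13 were GGCAAC and 11 AGCAAC. No word made up more than 3 of the 9 at Josd2.

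**Figure D3:**
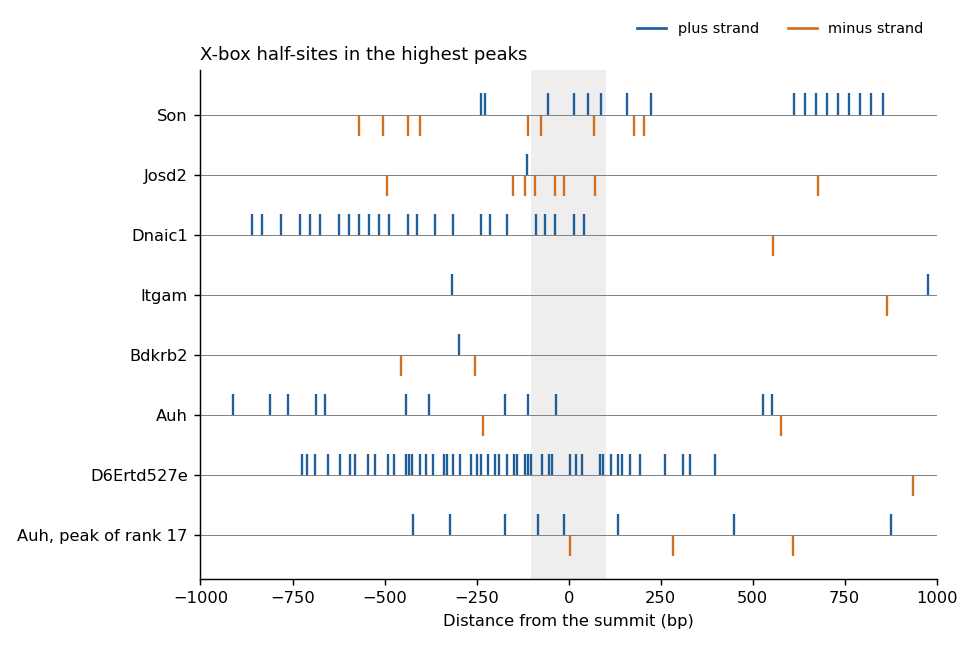
Position of each half-site relative to the summit (x axis, bp, shown within 1000 bp) for the highest peak of each gene and for the second Auh peak, which ranks 17th by tags, with the plus strand above each line in blue and the minus strand below it in orange. The grey band marks the 100 bp on either side of the summit, where D6Ertd527e has 8 half-sites and Itgam and Bdkrb2 none.

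The repeats were measured by shifting the 500 bp around each summit against themselves by 8 to 150 bases and counting equal bases. The best shift gave 86.6% equal bases at Bdkrb2 (68 bases), 64.2% at D6Ertd527e (48 bases), 61.9% at Son (36 bases), 56.6% at Itgam (25 bases) and 54.7% at Dnaic1 (25 bases). At Auh and Josd2 it was 34.9% and 34.5%, above the third quartile of all peaks, 33.5%, where the median was 31.9%. With a limit of 60%, set after the sequences had been seen, 3 of the 7 highest peaks and 1.17% of all peaks counted as tandem repeats. With 50% these were 5 of the 7, at Bdkrb2, D6Ertd527e, Son, Itgam and Dnaic1, and 2% of all peaks. None of the other 53 peaks at these genes exceeded 38.3%.

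The period was not the same at the 5 repeats. Bdkrb2 had its maxima at multiples of 17 bases, from 82.2% at 17 to 86.6% at 68. Itgam followed multiples of 25, with 54.4% at 50 and 53.6% at 75. Dnaic1 had maxima at 25 and 27 bases and at their sum, 52, with 54.5% at the last. D6Ertd527e had further maxima at multiples of 3, such as 56.1% at 147 and 50.6% at 30, and its coding exon held runs of the triplet agc. Over the whole peak, Auh reached 34.6% at a shift of 50 and 33.8% at 25, and the neighbouring Auh peak 33.7% at 25.

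**Figure D4:**
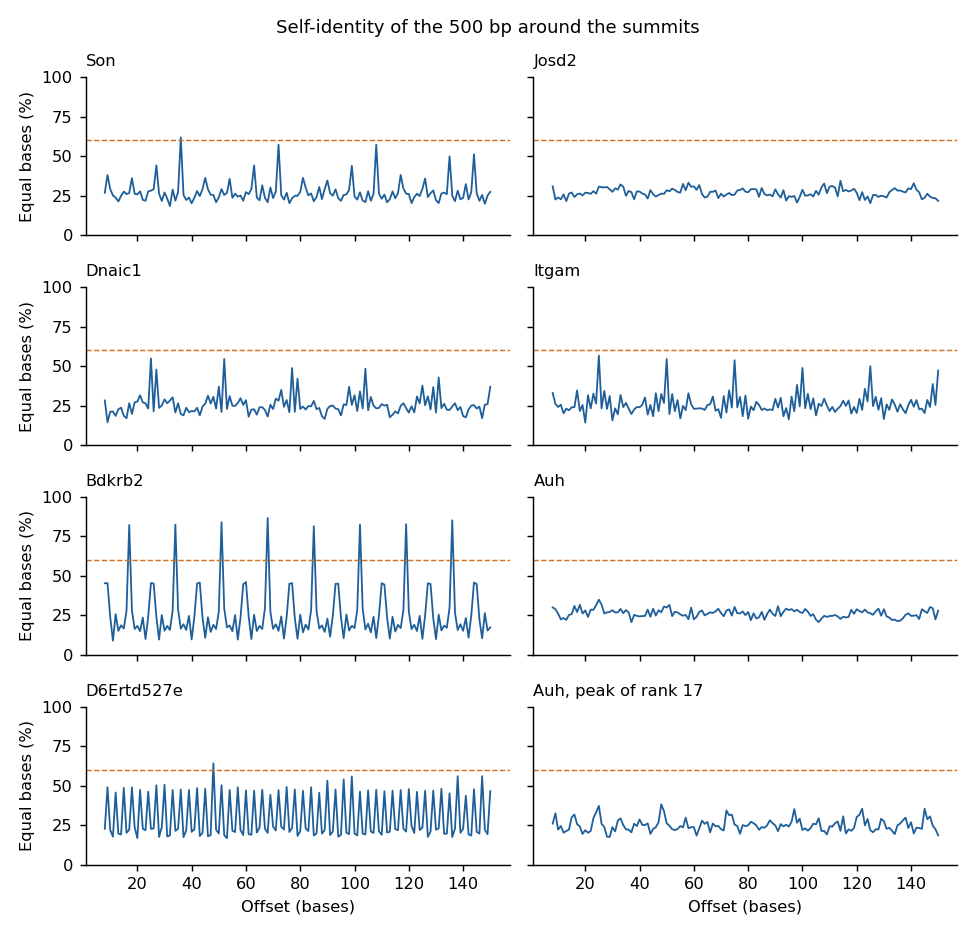
Percentage of equal bases (y axis) when the 500 bp around a summit are shifted against themselves by the number of bases on the x axis, for the highest peak of each gene and the second Auh peak, with a dashed line at 60%. Sharp maxima recur at a fixed spacing at Son, Itgam, Bdkrb2 and D6Ertd527e. At Dnaic1 they stand at 25 and 27 bases and at sums of these, and Josd2 and both Auh peaks stay below 39%.

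The repeats were also counted as exact words. In the Dnaic1 peak the most frequent word of 20 bases was present 20 times, and it contains a half-site, in capitals.
Dnaic1, word: ccacagggcagtGGTAACta
At Itgam the most frequent word occurred 15 times and at Son 12 times, in Son at a median spacing of 30 bases.
Itgam, word: acacacctgggagacagtga
Son, word: atggactcccagatgttagc
At Bdkrb2 the most frequent word occurred 6 times, and in the Josd2 peak no word of 20 bases occurred more than once. Words present more than once made up 28.2% of all words of 20 bases in the Dnaic1 peak, 27.8% at Itgam, 20.4% at D6Ertd527e, 15.0% at Bdkrb2, 14.6% at Son and 0.427% at Auh.

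Despite the repeats, most of this sequence had no second exact copy in the genome at the length of a read. Only exact matches were counted, so copies that differ by a few bases were taken as different. Windows of 50 bases found more than once in the mm9 assembly made up 12.6% of the windows around the summit at D6Ertd527e, 3.97% at Bdkrb2 and 0% at the other 5 genes. Over the whole peak, where the tags were counted, they made up 4.89% at Auh, 4.52% at Itgam, 4.51% at Son, 3.93% at Dnaic1, 3.80% at D6Ertd527e, 2.67% at Bdkrb2 and 0% at Josd2. The most frequent of them had 14526 copies in the genome at Auh and 71 at Bdkrb2, and at most 4 at the other genes. Over all peaks, 4.69% had at least 1 such window around the summit. The deposited values do not tell how often reads from the arrays were placed, and the part of repeated sequence in the tag numbers was not tested.

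Repeats were also more frequent in other peaks with many tags. Of the 100 peaks with the most tags besides these 7, 15 (15%, 95% Wilson interval 9.31% to 23.3%) counted as tandem repeats at 60% identity, as did 59 of the first 1000 (5.9%, 4.60% to 7.54%). At least 3 half-sites around the summit were present in 14 of the 100 (14%, 8.53% to 22.1%) and in 115 of the 1000 (11.5%, 9.67% to 13.6%). A strict X-box was present in 7 of the 100 (7%, 3.43% to 13.7%) and 81 of the 1000 (8.1%, 6.56% to 9.96%), and coding exons held 18 of the 100 summits (18%, 11.7% to 26.7%). These intervals cover counting error in this library only.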

How the data were processed

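Per the labels and the file headers, the authors made 50-base single-end reads with CASAVA version 1.8.2, mapped them with Bowtie to mm9 (settings not given in the sources used here) and called peaks of the HA-Rfx6 library against the control with MACS version 1.4.2 (p-value cutoff 1.00e-05, at most 1 tag per position). The deposited tags are counts of ChIP reads per peak, without normalization. The fold enrichment they deposited is a ratio to the local background. The score in the deposited list is 10 times the negative log10 of the p-value, and the deposited FDR is a percent from the exchange of both libraries. FDR was used only as an alternative, since 10 peaks have an FDR of at most 1% and the 77 peaks at a score of 3100 have 25.29%.

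Summits (start + summit - 1) were placed on the NCBIM37 (mm9) genome and GENCODE M1. A summit belonged to a gene when it lay in it or within 100 kb. A position was called exonic if any transcript has an exon there. Exon and intron numbers refer to the coding transcript with the longest coding sequence. X-boxes and half-sites were searched on both strands in the 200 bp around each summit, where matches may overlap. The genome file marks no repeats in lower case, so no masked share was computed. Words of 50 bases were counted on both strands over all sequences of the assembly. Python 3.11.15, numpy 2.4.6, pandas 2.3.3, numba 0.67.0, scipy 1.17.1 and matplotlib 3.10.9 were used. All searches were tested on simulated sequences, where 100% of 400 planted X-boxes and 200 planted repeats were found. The planted repeats had units of equal length and few changed bases. They do not show how well repeats as diverged as those at Itgam and Dnaic1 are found. The genes named are the 7 members, genes that hold their peaks, the nearest coding genes on either side of the highest summits, and genes at the 10 peaks with the most tags. One gene beside the 11th peak was named after its values were seen. The members, the lists and the settings were chosen with earlier results of these data known. With 1 library per condition no test was made.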

Additional observations from a re-analysis of the deposited data

How the results depend on the processing

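The 60 peaks at the 7 genes became 39 with a distance of 50 kb and 26 with 20 kb. They were 21 among peaks with a fold enrichment of at least 10, 29 among the 50% of peaks with the highest score, and 0 among the 10 peaks with an FDR of at most 1%. Of the 10 strongest peaks, 7 were in or nearest to these genes by tags, but 3 when ranked by fold enrichment and 0 by score. The 0 arises because exactly 10 peaks score above the 3100 that all 7 share with the other peaks at that value. The Rfx6 peak, with a fold enrichment of 17.51, had the same 3100 as the Josd2 peak, with 95.8. The score and its FDR thus do not order the peaks at 3100 by strength, and whether the 10 above are stronger was not tested. The 1 strict X-box among the 7 highest peaks became 3 with the relaxed X-box and 2 when the whole peak was searched, the additional gene being Son. Tandem repeats were counted at 3 of the 7 peaks with 60% identity, at 5 with 50% and at 1 with 70%. These 2 limits, and the search for half-sites in 500 bp, were chosen after seeing the data. The other 14 values kept within 1.5 times of the reported value, among them the fold enrichment of each highest peak and the number of exonic summits. For the fold enrichments, the only change was to choose the highest peak by fold enrichment. This picked the same peak at each gene, so the fold enrichments themselves were not put to a test. No paired analysis was possible because each condition had 1 library and no test was made, and for the same reason no replicate could be left out. The control kept far fewer reads than the ChIP library, and its effect on the fold enrichments of the 7 peaks was not tested.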
